A study of Mus musculus with 6 samples.

Results

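The PAK and TAO kinases are protein kinases of the Ste20 family, and their 9 genes were taken by symbol from a table of 24972 genes measured in mouse cortex at postnatal day 7 (P7). They are the 6 PAK genes Pak1, Pak2, Pak3, Pak4, Pak6 and Pak7 and the 3 TAO kinase genes Taok1, Taok2 and Taok3. Pak7 is the older symbol of Pak5. All 9 were found, and all 9 passed the filter on low values, which 15800 genes passed. The PAKs are effectors of the small GTPases Rac and Cdc42 and act on the actin cytoskeleton, and in neurons they are known for roles in spines, neurites and migration. Pak1, Pak2 and Pak3 form group I, which is held inactive until a GTPase binds, and Pak4, Pak6 and Pak7 form group II. The TAO kinases lie upstream of the p38 and JNK kinases and also act on microtubules and septins in growing dendrites.

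The study asked how loss of Zmiz1, a transcriptional coregulator, alters gene expression in the cortex. RNA from dissected cortices was sequenced in 3 libraries labelled wildtype and 3 labelled Zmiz1-KO. A treatment label speaks of isolating progenitor cells, but markers of mature neurons, microglia and vessels were abundant in each library, as given with the markers. Wildtype mice carried the genotype Zmiz1f/f, so the floxed Zmiz1 allele was present in both groups, and Zmiz1-KO mice were Zmiz1f/f;Emx1Cre, so Cre was present in that group alone. Emx1-driven Cre acts in progenitors of the dorsal forebrain, and interneurons, microglia and vessels of the cortex come from other sources. Cre without the floxed allele was not analysed here. The libraries are numbered 1 to 3 in each group, and whether each came from a separate animal is not stated, so p-values measure the spread between these libraries. Values are the authors' normalized counts per gene and library.

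Zmiz1 itself had 8119, 7929 and 7461 normalized counts in wildtype and 9944, 9779 and 9660 in the Zmiz1-KO-labelled libraries. It was higher, not lower, under the label of the deletion (log2 fold change 0.32 with a standard error of 0.040, limma adjusted p = 0.00125), so the groups are named by their labels and each direction given here is that of the labels. The values are per gene, and they do not separate transcripts that hold the floxed part from those that lack it. By qPCR, the study reports Zmiz1, Gria2, Cplx3 and Tnc as lower in its Zmiz1-KO samples. For Zmiz1 that is opposite to the direction between these labelled libraries. Whether the RNA used for qPCR came from the same animals as these libraries is not stated. Emx1, the cortical transcription factor whose locus drives Cre, had 818, 688 and 784 normalized counts in wildtype and 532, 473 and 583 in the Zmiz1-KO-labelled libraries. Emx1 was lower in the Zmiz1-KO-labelled libraries (log2 fold change -0.53 with a standard error of 0.090, limma adjusted p = 0.0150). By Xist and the Y-linked gene Ddx3y, wildtype replicate 3 and Zmiz1-KO replicate 2 were female and the other 4 libraries male. Xist had 25307 and 24403 normalized counts in the female libraries and 12.9 to 57.3 in the others.

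Marker genes of cell types were read in each library, and no marker of projection neurons was at 0 in any library. Their presence does not measure how purely cortical the dissections were, and striatal markers were also present. Camk2a of mature neurons had 23824 to 25468 normalized counts over the 6 libraries, Csf1r of microglia 1375 to 1530 and Cldn5 of endothelial cells 2197 to 2500. The 8 markers of glutamatergic projection neurons summed to 66158, 60714 and 62703 normalized counts in wildtype and 63549, 62096 and 62192 in the Zmiz1-KO-labelled libraries. Camk2a was the most abundant of them. None of the 8 passed the test (limma, adjusted p at or under 0.05), 1 had an unadjusted p under 0.05, and 7 had log2 fold changes below 0 with a median of -0.09. The 9 markers of GABAergic interneurons, led by Gad1, summed to 18278, 22587 and 20323 in wildtype and to 23700, 25503 and 24092 in the Zmiz1-KO-labelled libraries. All 9 had log2 fold changes above 0 (median 0.27), 6 had an unadjusted p under 0.05, and 0 passed the test with limma. Striatal projection neuron markers, led by Pde10a, summed to 13936, 16974 and 17790 in wildtype and 20200, 21342 and 18979 in the Zmiz1-KO-labelled libraries. All 7 had log2 fold changes above 0 (median 0.37), and 3 had an unadjusted p under 0.05 with limma. Of these markers 1, Pde10a, passed the threshold (limma adjusted p = 0.00303). Markers of meningeal and mural cells, led by Col1a2, summed to 9048, 9553 and 10231 against 11382, 11848 and 11381. Of the 6, 5 had log2 fold changes above 0 and 1 below (median 0.16), and 3 had an unadjusted p under 0.05 with limma. Among them 1, Col1a2, was called higher (limma adjusted p = 0.00464).

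Among 6 astrocyte markers, Aqp4 was called lower (log2 fold change -0.29, limma adjusted p = 0.00499). The other 5 were not called, and over the 6 markers 2 log2 fold changes were above 0 and 4 below, with a median of -0.04. An unadjusted p under 0.05 with limma was reached by 2 of the 6. Slc1a3 led that list, which summed to 41563, 42689 and 40370 in wildtype and 40375, 40602 and 38632 in the Zmiz1-KO-labelled libraries. No marker of the oligodendrocyte lineage (8 tested, 4 with an unadjusted p under 0.05), microglia (6 and 1), endothelial cells (5 and 1) or choroid plexus (5 and 0) passed the test with limma, and their median log2 fold changes were -0.16, -0.11, -0.09 and -0.40. The choroid plexus gene Ttr varied within the groups, with 98.8, 7728 and 5871 normalized counts in wildtype and 2874, 89.8 and 4468 in the Zmiz1-KO-labelled libraries. In whole cortex, fewer cells of a type and less RNA per cell cannot be told apart. The part of cell composition in the kinase results was not tested.

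All 9 kinase genes were expressed in each of the 6 libraries. Levels of different genes are compared as normalized counts per kilobase of annotated exons. In wildtype, Pak6 (1687 ± 111 per kilobase, SD, n = 3) and Pak1 (1669 ± 63.8, SD, n = 3) stood highest, and their ranges overlapped. Taok2 came next with 853 ± 21.5 (SD, n = 3), ahead of Pak3 with 685 ± 26.1 (SD, n = 3). Taok1 (399.7 ± 21.5, SD, n = 3) and Pak2 (386 ± 18.7, SD, n = 3) overlapped in wildtype. Pak7 (338 ± 26.2), Taok3 (197 ± 5.97) and Pak4 (87.5 ± 6.62; SD, n = 3 each) followed, each separate from its neighbors in the order. By this measure Pak6 made up 34.8% of the summed PAK level, Pak1 34.4%, Pak7 6.97% and Pak4 1.80%, while Taok2 made up 58.8% of the summed TAO kinase level. The order depends on the length used. Per kilobase of the longest transcript, Taok3 (493) stood above Taok1 (400.1), and Pak1 (2147) and Pak6 (1993) again overlapped in wildtype. Per kilobase of the median coding transcript, Taok3 stood at 1013, above Pak3 (803), and Taok2 at 1683. In the Zmiz1-KO-labelled libraries, Taok1 (343 ± 20.1 per kilobase of exons, SD, n = 3) lay below Pak2 (383 ± 17.5, SD, n = 3), and those 2 sets of values did not overlap.

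**Figure D1:**
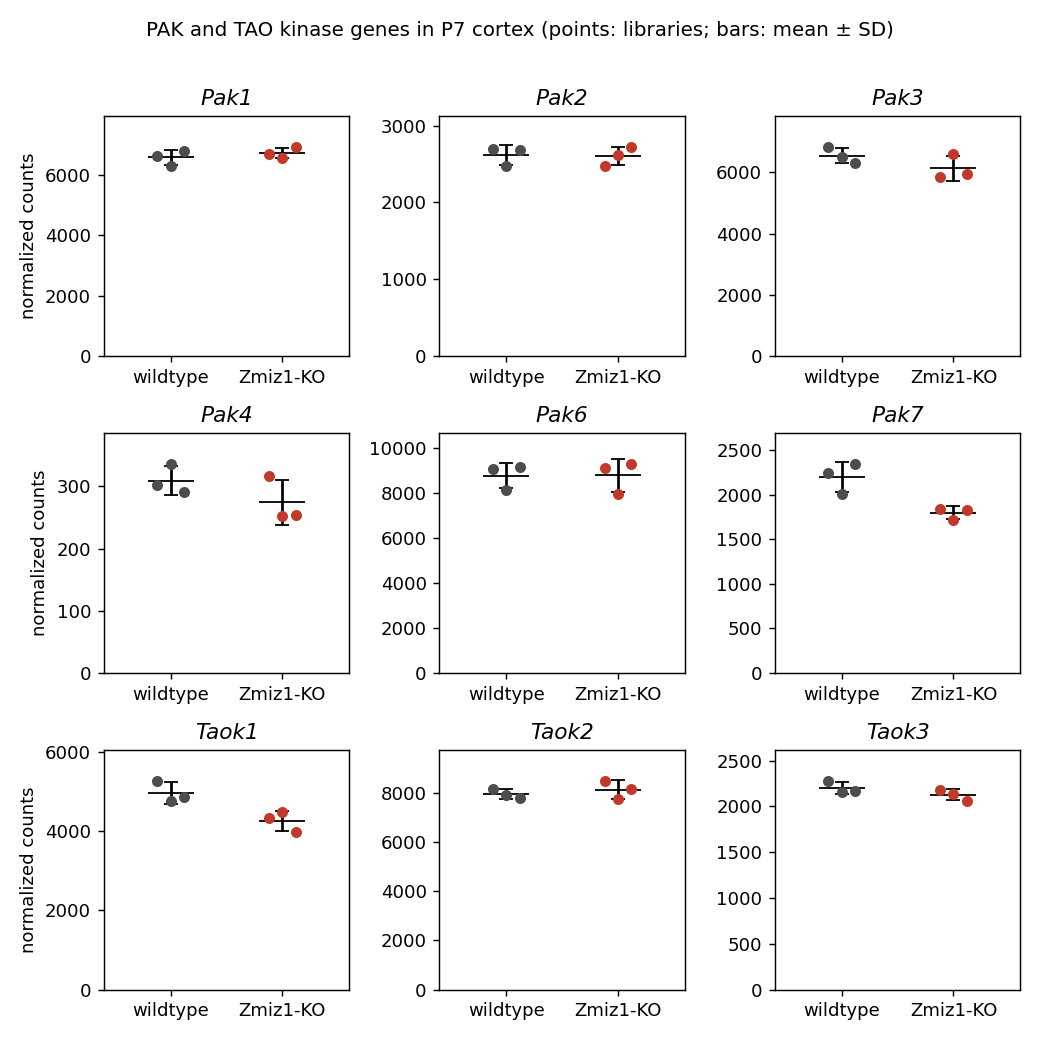
Normalized counts (vertical axes, from 0) of the 9 kinase genes in the 3 wildtype libraries (grey points) and the 3 libraries labelled Zmiz1-KO (red points), with lines for the mean and bars for the SD. The 2 groups are separate for Pak7 and Taok1 and overlap for the other 7 genes.

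Pak7 was the 1 kinase gene of the 9 that passed the test, and it was lower in the Zmiz1-KO-labelled libraries. It encodes a group II PAK of the brain. Pak7 lies on chromosome 2 of GRCm38 (chr2:136081104-136387967, minus strand; ENSMUSG00000039913). Wildtype replicates 1 to 3 held 2244, 2012 and 2344 normalized counts, and Zmiz1-KO replicates 1 to 3 held 1844, 1714 and 1835. All 3 wildtype values lay above all 3 of the other group, and the female library of each group held that group's extreme value, the highest of wildtype and the lowest of Zmiz1-KO. Means were 2200 ± 171 (SD, n = 3) and 1798 ± 72.4 (SD, n = 3). On the log2(value + 1) scale Pak7 fell by 0.29, with a standard error of 0.059, a 95% interval from -0.41 to -0.16 and a limma adjusted p of 0.0437. The exact permutation test gave p = 0.1, the smallest possible with 3 libraries against 3. The study itself lists this gene, as Pak5, among its differentially expressed genes from these same libraries, so its choice is not independent of its values.

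The Pak7 call sits close to the threshold. It was lost with a covariate for sex (limma adjusted p = 0.0570), without robust estimation (0.135) and in the 4 male libraries alone, a setting chosen after seeing the data (log2 fold change -0.21, limma adjusted p = 0.151). Leaving out wildtype replicate 1 (0.159) or 3 (0.162), or Zmiz1-KO replicate 1 (0.126), 2 (0.0657) or 3 (0.182), also ended the call, and without wildtype replicate 2 the adjusted p was 0.0127. The log2 fold change stayed below 0 in all 19 alternatives, from -0.35 to -0.21.

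The other group II genes did not pass the test. Pak6, which is also expressed in brain, had 9091, 8126 and 9154 normalized counts in wildtype and 9115, 7975 and 9296 in the Zmiz1-KO-labelled libraries, a log2 fold change of -0.00042 (95% interval -0.15 to 0.15, limma adjusted p = 0.999). The ranges of Pak6 almost coincided. The ratio of Pak7 to Pak6, formed after their values were seen, was 0.247, 0.248 and 0.256 in wildtype and 0.202, 0.215 and 0.197 in the Zmiz1-KO-labelled libraries. These ratios were separate between the groups, which restates the difference in Pak7 beside a gene chosen for its small one, so no test is given. The ratio of Pak7 to Pak4 was 7.44, 5.99 and 8.06 in wildtype and 5.83, 6.80 and 7.22 under the other label, and here the groups overlapped. Pak4, the broadly expressed member of group II, had 302, 336 and 291 normalized counts against 316, 252 and 254, with overlapping groups. Its log2 fold change of -0.18 had the widest interval of the 9 genes, from -0.42 to 0.07 (limma adjusted p = 0.617), at the lowest level of the 9. A difference as large as that of Pak7 lies inside this interval.

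Taok1 was the other gene whose groups did not overlap, although it missed the threshold. Taok1 encodes a kinase that phosphorylates the kinases above p38 and acts through MARK kinases on microtubule dynamics, and variants of the human gene cause a neurodevelopmental disorder. It lies on chromosome 11 of GRCm38 (chr11:77529162-77607815, minus strand; ENSMUSG00000017291). It had 5268, 4766 and 4860 normalized counts in wildtype and 4326, 4480 and 3991 in the Zmiz1-KO-labelled libraries. Each wildtype library was above each of the others, and Zmiz1-KO replicate 2, a female library, lay nearest to wildtype. Means were 4965 ± 267 (SD, n = 3) and 4266 ± 250 (SD, n = 3), and the log2 fold change was -0.22 with a standard error of 0.051 (95% interval -0.33 to -0.11, limma adjusted p = 0.0888). The exact permutation test gave p = 0.1. Without Zmiz1-KO replicate 2, Taok1 passed the threshold (log2 fold change -0.26, limma adjusted p = 0.0233), as it did in the 4 male libraries (-0.27, 0.0461), while without Zmiz1-KO replicate 3 its adjusted p was 0.457. Over the 19 alternatives the log2 fold change ran from -0.27 to -0.17. Like Pak7, Taok1 is among the genes the study named from these libraries.

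The other TAO kinases gave smaller differences. Taok2, a kinase of dendrite and spine growth, had 8162, 7898 and 7768 normalized counts in wildtype and 8473, 7734 and 8157 in the Zmiz1-KO-labelled libraries (log2 fold change 0.03, limma adjusted p = 0.851). Taok3 had 2277, 2160 and 2163 against 2183, 2137 and 2060 (log2 fold change -0.05, limma adjusted p = 0.783). Both genes had overlapping groups, and their 95% intervals ran from -0.06 to 0.12 and from -0.15 to 0.05. The ratio of Taok1 to Taok2, formed after their values were seen, was 0.645, 0.603 and 0.626 in wildtype and 0.511, 0.579 and 0.489 in the Zmiz1-KO-labelled libraries. The ratio of Taok1 to Taok3 was likewise separate between the groups, with means of 2.26 ± 0.0542 (SD, n = 3) and 2.00 ± 0.0822 (SD, n = 3). Both ratios restate the difference in Taok1 and were not tested.

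None of the 3 group I PAKs passed the test with limma. Pak1, the group I kinase best known from neurons and spines, had 6637, 6304 and 6797 normalized counts in wildtype and 6697, 6569 and 6906 in the Zmiz1-KO-labelled libraries (log2 fold change 0.03, 95% interval -0.06 to 0.12). Pak2, the group I kinase of most tissues, had 2700, 2473 and 2687 against 2477, 2612 and 2715 (-0.01, 95% interval -0.12 to 0.10). For both genes the groups overlapped. Pak3, an X-linked gene with variants in intellectual disability, had 6810, 6507 and 6316 in wildtype and 5838, 6601 and 5930 in the Zmiz1-KO-labelled libraries. Its log2 fold change was -0.10 (95% interval -0.20 to 0.01, limma adjusted p = 0.490). The overlap came from Zmiz1-KO replicate 2, a female library, and the 2 male values of each group were separate. In the 4 male libraries alone, chosen after seeing the data, the estimate for Pak3 was -0.18 (limma adjusted p = 0.0844).

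**Figure D2:**
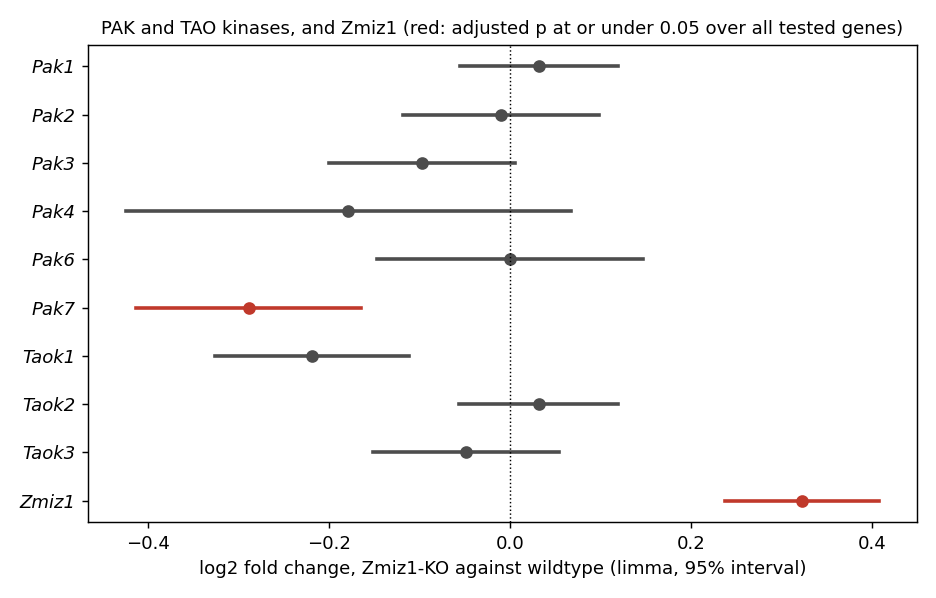
Log2 fold change (horizontal axis, libraries labelled Zmiz1-KO against wildtype, limma) of the 9 kinase genes and Zmiz1, with points for the estimates and lines for 95% intervals. Pak7 (-0.29) and Zmiz1 (0.32), in red, passed the threshold, the interval of Taok1 (-0.22) excluded 0 without passing it, and the signs of Pak2 and Pak6, both near 0, flipped with upper-quartile scaling.

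Of all 15800 genes tested, 65 or 0.411% passed the threshold (limma, adjusted p at or under 0.05), and 39 or 0.247% passed it as lower in the Zmiz1-KO-labelled libraries, against 1 of the 9 kinase genes. At an adjusted p of 0.1, 106 genes or 0.671% passed, against 2 of 9, Pak7 and Taok1. Groups did not overlap for 2570 genes or 16.3%, against the same 2 of 9. As the study had already named both genes from these libraries, these counts cannot be read as a property of the family. Over the 9 genes the median log2 fold change was -0.05, over all tested genes it was -0.00018, and the median absolute log2 fold change was 0.05 against 0.07. Estimates were below 0 for 7 of the 9 genes, but those of Pak2 and Pak6 changed sign with upper-quartile scaling and that of Pak6 with limma-voom.

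The members differ enough in sequence for most reads to be told apart. Among proteins translated from the annotated coding sequences, Pak1 and Pak3 were 78.1% identical, Pak1 and Pak2 76.3% and Pak2 and Pak3 72.4%. Within group II, Pak7 was 52.1% identical to Pak4 and 45.9% to Pak6. Taok1 was 65.5% identical to Taok3 and 49.2% to Taok2. In the coding sequence, however, the longest run of bases shared by any pair of the 9 genes was 23. For Pak7, none of its 6501 stretches of 75 transcript bases occurred in another gene, and for Taok1 25 of 12346 did (0.203%), all in Abhd15, whose exons overlap those of Taok1 on the opposite strand. The highest share, 2.10%, was that of Pak2. The counting is not stated to use strand, so reads from that overlap, 0.757% of the Taok1 exon bases, cannot be told apart. Pak4 shares 1.1% of its exon bases with Samd4b on the same strand.

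How far even a conserved motif has diverged between the PAKs is seen in the 48 bases that code for the start of the CRIB motif, the stretch by which PAKs bind Rac and Cdc42. The stretch was found in all 6 PAKs by a search of the translated proteins, at residues 11 to 26 of Pak7 (719 residues) and 75 to 90 of Pak1 (544 residues). The sequences are from GENCODE on GRCm38, on the coding strand from 5′ to 3′, and capitals mark bases that differ from Pak7.
Pak7: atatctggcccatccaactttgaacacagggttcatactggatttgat
Pak4: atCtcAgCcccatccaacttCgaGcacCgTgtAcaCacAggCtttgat
Pak6: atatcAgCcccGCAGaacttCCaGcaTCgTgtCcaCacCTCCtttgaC
Pak1: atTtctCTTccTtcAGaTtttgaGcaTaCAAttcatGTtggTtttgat
Pak2: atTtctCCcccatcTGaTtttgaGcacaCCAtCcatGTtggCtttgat
Pak3: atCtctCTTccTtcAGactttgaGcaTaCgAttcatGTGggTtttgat
From Pak7, Pak4 differed at 11 of the 48 bases, Pak6 at 19, Pak1 at 16, Pak2 at 14 and Pak3 at 15. The motif was found in none of the 3 TAO kinases, which are not known as Rac or Cdc42 effectors.

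Promoter sequences of 8 of the 9 genes, 12 promoters in all, were matched by symbol in a RefSeq table of 32851 mouse promoters (GRCm38.p6), each of 300 bases. The promoters of Pak7 and Taok1 are shown since these were the 2 genes whose groups did not overlap. Motif letters were searched on both strands, and capitals mark them. They were CAGACA, which holds a SMAD-binding core (in 21.0% of all promoters), the GC box GGGCGG (35.7%), the AP-1 letters TGANTCA (7.81%), the CRE letters TGACGTCA (1.79%) and the RBPJ letters TGGGAA (25.6%). Zmiz1 is known as a partner of Notch1, which acts through RBPJ, and of SMAD proteins, and no motif contains another. The Pak7 promoter is on the minus strand at chr2:136387918-136388217.
Pak7 promoter: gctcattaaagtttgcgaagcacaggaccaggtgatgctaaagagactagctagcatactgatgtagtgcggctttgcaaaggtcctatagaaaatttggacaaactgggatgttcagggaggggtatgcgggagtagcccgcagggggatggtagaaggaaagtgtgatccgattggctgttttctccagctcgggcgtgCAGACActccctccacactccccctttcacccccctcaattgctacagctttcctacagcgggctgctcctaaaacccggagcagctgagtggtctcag
The Taok1 promoter is on the minus strand at chr11:77607766-77608065.
Taok1 promoter: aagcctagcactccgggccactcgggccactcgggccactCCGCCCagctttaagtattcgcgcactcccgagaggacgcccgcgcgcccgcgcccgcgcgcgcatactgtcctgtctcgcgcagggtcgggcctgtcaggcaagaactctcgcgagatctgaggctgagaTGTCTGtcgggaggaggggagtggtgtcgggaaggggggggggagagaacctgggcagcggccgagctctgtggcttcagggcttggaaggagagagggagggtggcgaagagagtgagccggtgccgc
The Pak7 window held 9 CpG dinucleotides and was 53.3% G and C, close to the medians of all promoters (7 and 52.7%). The Taok1 window held 29 and was 68.3% G and C. Both windows held the SMAD letters 1 time, in Taok1 on the other strand, and Taok1 also held 1 GC box. Among the other 6 matched genes, the SMAD letters were found in 1 promoter of Pak1 and 2 of Pak3, and the CRE letters 2 times in a promoter of Pak1. GC boxes were found 4 times in each of the 2 Pak1 promoters, 3 times in that of Pak4, 2 times in 1 of Pak6 and 5 times in that of Taok3. The RBPJ letters were found in 2 promoters of Pak3 and in those of Pak4 and Taok3, and the AP-1 letters in 1 of Pak6. A match describes letters in these windows and no binding.

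Genes that work with these kinases were followed in 7 lists, which hold 95 tested genes. None of the 95 passed the test with limma, 0 passed with limma-voom, and 6 had an unadjusted p under 0.05. Over all tested genes an unadjusted p under 0.05 was reached by 1733, or 11.0%. Of the 95 genes, 77 had log2 fold changes within 0.1 of 0, and their median was -0.02. Groups did not overlap for 9 of the 95, against the 16.3% of all tested genes.

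Around the PAKs themselves, the list of scaffolds, exchange factors and adaptors gave no call. Of its 10 genes, 0 passed the test (limma) and 0 had an unadjusted p under 0.05. They include Arhgef7 (log2 fold change -0.05) and Git1 (0.01), which form the complex that carries PAKs to adhesions and synapses, the adaptor Grb2 (0.0049), and Nf2 (-0.00027), an inhibitor of group I PAKs.

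Downstream of the PAKs, LIM kinases phosphorylate cofilin and so slow the turnover of actin filaments. Of 22 substrates and cofilin pathway genes, 0 passed the test (limma) and 0 had an unadjusted p under 0.05. The 22 log2 fold changes ran from -0.09 to 0.10 with a median of -0.01. Cfl1, which encodes cofilin, averaged 38215 ± 688 (SD, n = 3) normalized counts in wildtype and 38803 ± 1056 (SD, n = 3) under the other label. Stmn1, the microtubule regulator stathmin, Ctnnb1, the gene of beta-catenin, and Flna, an actin crosslinker, had log2 fold changes of -0.0070, -0.0042 and 0.019.

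Downstream of the TAO kinases, 0 of 11 MAPK targets passed the test (limma), and 0 had an unadjusted p under 0.05. Mapk8, Mapk9 and Mapk10, the 3 JNK genes, had log2 fold changes of -0.02, -0.04 and -0.01, and Map2k4, a kinase of JNK, had one of -0.05. The groups of Mapk9 and Map2k4 did not overlap. Of 13 microtubule and septin targets, 0 passed and 1, Map1b, had an unadjusted p under 0.05. Map1b, a microtubule-associated protein of growing axons, averaged 74987 ± 4567 (SD, n = 3) normalized counts in wildtype and 67489 ± 5152 (SD, n = 3) under the other label, with a log2 fold change of -0.15 and an adjusted p of 0.426 (limma). Without Zmiz1-KO replicate 2 it passed the threshold (limma adjusted p = 0.0360). Mapt, which encodes tau, Map2 and Sept7, a septin phosphorylated by Taok2, had log2 fold changes of -0.03, -0.03 and -0.02.

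In the Hippo core, which TAO kinases can activate through Stk3 and Stk4, 0 of 13 genes passed the test (limma) and 1 had an unadjusted p under 0.05. The median log2 fold change of -0.06 was the lowest of the 7 lists. Lats1, Stk4, Tead1 and Wwtr1 had log2 fold changes of -0.05, -0.08, 0.06 and 0.07. Among 18 tested kinases of the wider Ste20 family, 0 passed and 3 had an unadjusted p under 0.05. Map4k4 (log2 fold change -0.08), Stk25 (0.05), Tnik (-0.13) and Mink1 (0.03) had the highest normalized counts of them. The smallest adjusted p of the 95 genes belonged to Myo3b, a kinase joined to a myosin motor, singled out after its values were seen (log2 fold change 0.68, standard error 0.17, limma adjusted p = 0.123).

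**Figure D3:**
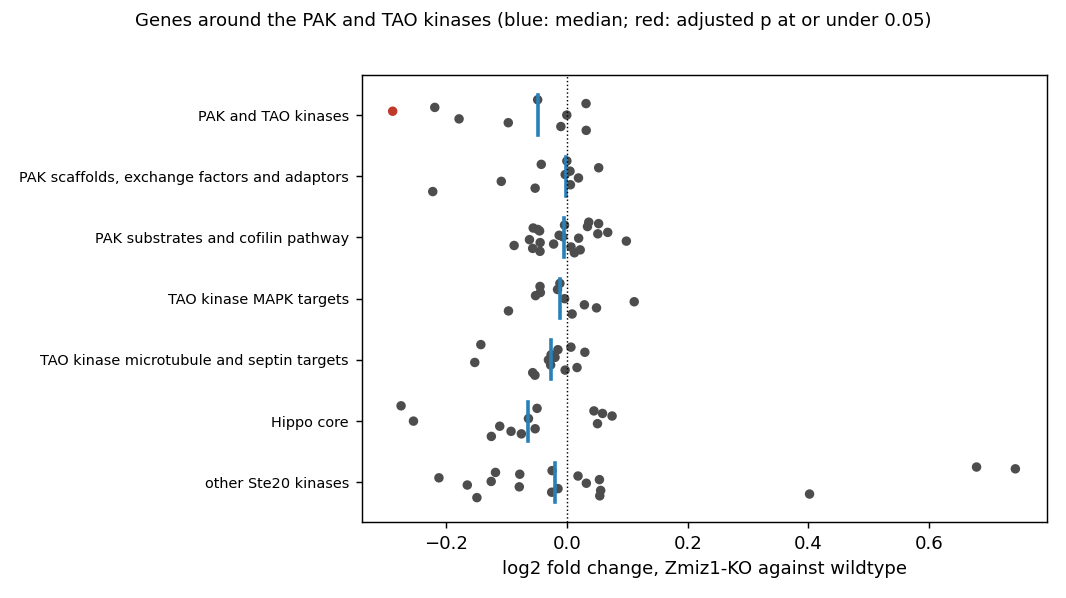
Log2 fold changes (horizontal axis, libraries labelled Zmiz1-KO against wildtype) of single genes (points) in the PAK and TAO kinases and in 6 of the 7 lists of related genes, with blue lines for list medians and red for an adjusted p at or under 0.05. Pak7 (-0.29) is the 1 red point, and medians lie between -0.064 and -0.0017.

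The genes whose pattern over the 6 libraries was most like that of Pak7, among 10571 tested genes with a mean of at least 300 normalized counts, were Zbtb34, Kpna4 and Atp6v0a2. Their Pearson correlations of log2(value + 1) with Pak7 were 0.984, 0.984 and 0.983. Their log2 fold changes were -0.21, -0.09 and -0.05, in genes picked for their correlation alone. For Taok1 they were Flrt2, Trim37 and Fzd3, with correlations of 0.994, 0.993 and 0.993 and their differences on the log2 scale were -0.15, -0.10 and -0.08. No gene of these 6 passed the threshold (limma). Between Pak7 and Taok1 the correlation was 0.765. These correlations over 6 libraries include the difference between the groups and are descriptions.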

How the data were processed

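The authors aligned reads of 6 TruSeq libraries to mm10 with STAR in Illumina BaseSpace and normalized them with DESeq2. The deposited values are this normalized signal, 1 per gene and library. Sums divided by the commonest low value gave 15494889 to 17858391 reads per library as an estimate of depth. Whole reads were not recovered, so no test that needs whole counts was run. Groups follow the labels. Genes with at least 10 in at least 3 libraries were compared with limma 3.58.1 (R 4.3.3; log2(value + 1), trend, robust; two-sided, Benjamini-Hochberg over 15800 genes). Single genes also had exact permutation tests.

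Named genes are the members, Zmiz1, Emx1, Xist, Ddx3y, called list genes and the 4 most abundant per list, and the 3 genes most correlated with Pak7 and Taok1. The genes of 1 list enter the totals over lists but are not reported here. Members and lists were chosen with earlier results of these data known. Lengths and coding sequences came from GENCODE M21 (GRCm38), and identities from alignments of their translations, in place of RefSeq proteins. Alternatives were limma-voom, 3 scalings, other filters, pseudocounts and thresholds, no robustness, a replicate block, a sex covariate, each library left out, other lengths and, added after seeing the data, the 4 male libraries. Alignments used Biopython 1.88 and figures matplotlib 3.10.9 (Python 3.11.15).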

Additional observations from a re-analysis of the deposited data

How the results depend on the processing

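The count of all genes called was 65 and moved by over 1.5 times without robust estimation (17), at an adjusted p of 0.1 (106), in the 4 male libraries alone (153, chosen after seeing the data) and without 4 of the 6 libraries in turn. It ran from 12 to 152 with each library left out: 12 without Zmiz1-KO replicate 3, 17 without Zmiz1-KO replicate 1, 30 without wildtype replicate 1, 52 without wildtype replicate 3, 84 without wildtype replicate 2 and 152 without Zmiz1-KO replicate 2. Of the 9 kinase genes, 1 was called, against 0 without robust estimation, 0 with the sex covariate, 2 at an adjusted p of 0.1 and 0 to 1 with each library left out. In male libraries and without Zmiz1-KO replicate 2 the 1 gene called was Taok1. Pak7 kept its direction throughout, with log2 fold changes of -0.29 (limma adjusted p = 0.135) without robust estimation, -0.29 (0.0570) with the sex covariate, -0.21 (0.151) in male libraries and -0.35 to -0.24 (0.0127 to 0.182) with each library left out. Its call held in the other 10 settings that kept all libraries. Taok1 was called at an adjusted p of 0.1 (-0.22) and in male libraries (-0.27, limma adjusted p = 0.0461), and ran from -0.26 to -0.17 (0.0233 to 0.457) with each library left out. The sign of Pak2 turned with upper-quartile scaling (0.00013), in male libraries (0.0050) and among the fits without 1 library (-0.051 to 0.024). That of Pak6 turned with limma-voom (0.0053), upper-quartile scaling (0.010), in male libraries (0.10) and without 1 library (-0.056 to 0.069). Neither was called in any setting. The other 5 genes kept their sign and were not called in the 19 alternatives. List genes called were 0, or 0 to 1 with each library left out. The causes of these shifts were not tested. No sign of pairing by replicate number was seen: deviations of same-numbered libraries correlated at -0.00509, -0.113 and -0.00627 over genes. Differently numbered libraries of the 2 groups gave -0.0961 to 0.106. These values do not settle whether libraries of the 2 groups share an origin. With the replicate block, 168 genes were called, 2 of the 9 kinase genes, Pak7 and Taok1 (-0.22, limma adjusted p = 0.0222), and 1 list gene, Myo3b (limma adjusted p = 0.0398). Levels per kilobase in wildtype rose where the length was shorter. Per kilobase of the longest transcript they were 2147 for Pak1, 456 for Pak2, 756 for Pak3, 107 for Pak4, 1993 for Pak6, 454 for Pak7, 1593 for Taok2 and 493 for Taok3. Per kilobase of the median coding transcript they were 2355, 456, 803, 112, 2174, 499.8, 1683 and 1013 in the same order, while Taok1 moved by less than 1 SD. Tests that need whole counts were not run, since whole reads could not be recovered, and limma-voom was run without whole reads. Pak4 had the lowest values of the 9 genes and the widest interval, and the part of depth in it was not tested.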

Other observations

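Estimates for some kinase genes had opposite signs in male and female libraries, with 2 male libraries but only 1 female library per group. In the male libraries the log2 fold changes of Pak1, Pak3 and Pak6 were 0.07, -0.18 and 0.10, and in the female libraries, 1 against 1, they were -0.05, 0.06 and -0.20. Estimates for Pak7 (-0.21 and -0.45) and Taok1 (-0.27 and -0.12) were below 0 in both. After these values had been seen, limma's interaction term was computed for all genes, and 0 of the 9 passed the threshold, against 24 of 15800. At an unadjusted p under 0.05 there were 3 of the 9, Pak3, Pak6 and Pak7, against 8.27% of all genes. The lone female library of each group is there assumed to vary like the male ones, so the term says little for or against a difference between the sexes. The sexes were read from Xist and Ddx3y and not from the labels.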
